A study of Mus musculus with 8 samples.

Results

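The imprinted genes described here are 10 genes fixed by name: Rian, Meg3, Mirg and Dlk1 of the Dlk1-Dio3 domain, H19, Igf2 and Igf2r of the growth axis, and Cdkn1c, Peg3 and Plagl1. They were followed in the livers of NCOR knockout and control mice by taking, for each gene, the brightest row of the array table that was assigned to that gene alone. Such a row existed for 8 of the 10 genes, out of 22180 genes with one in the whole table; Mirg and H19 had only rows shared with other genes. The list was drawn up with the differences between these same arrays in view, Rian's low level in the knockout being one of them, so the values of the 10 genes are given as a description and carry no test.

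The arrays were 1-colour Affymetrix Mouse Gene 2.0, one for the total RNA of each of 8 mouse livers, 4 livers per group. Per the design text, mice with a floxed NCOR gene received an adeno-associated virus by vein carrying Cre recombinase (the group NCOR_KO) or green fluorescent protein (the group WT), and the livers were taken 2 weeks later at 5 pm, ZT10, which is 10 hours after lights on. All mice were 3 months old and ate normal chow. The labels call the WT group wild-type, so whether these mice also carried the floxed allele is not settled, and every WT mouse had the GFP virus and every NCOR_KO mouse the Cre virus, so an effect of Cre and one of losing NCOR cannot be told apart. The promoter that drove Cre, the cells that the virus reached and the sex of the mice are not given in the sources used here. The level of the deleted gene was not analysed here. The labels number the livers as biological replicates without tying them to animals, so every p-value measures the spread between these samples.

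NCOR, the nuclear receptor corepressor, brings histone deacetylase to unliganded nuclear receptors and keeps their target genes low. Imprinted genes are read from one parental copy only, the choice being set by DNA methylation laid down in the germ line. In the Dlk1-Dio3 domain the maternal copy yields long noncoding RNAs, among them Meg3, Rian and Mirg, whose introns hold small nucleolar RNAs and many microRNAs and which are thought to be made largely as one long transcription unit, while the paternal copy yields the protein-coding genes Dlk1, Rtl1 and Dio3. Many imprinted genes serve growth before birth and are turned down in the liver afterwards.

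The array's noncoding rows in the domain are named partly for microRNAs, and the results below turn on rows that Meg3 shares with Mir770 and with Mir1906, on Mir370 inside Rian, on Mir673 between Meg3 and Rian, and on the row that H19 shares with Mir675. Their mature sequences are shown so that these rows can be told from one another, 5′ to 3′, from RefSeq on GRCm38.p6, with the seed (bases 2 to 8) in capitals. Whether the probes read the mature form, the hairpin or the host transcript is not given in the sources used here.
mmu-miR-770-5p: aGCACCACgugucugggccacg
mmu-miR-770-3p: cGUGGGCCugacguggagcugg
mmu-miR-1906: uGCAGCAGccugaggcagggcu
mmu-miR-673-5p: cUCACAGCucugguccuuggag
mmu-miR-673-3p: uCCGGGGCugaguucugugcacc
mmu-miR-370-5p: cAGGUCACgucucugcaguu
mmu-miR-370-3p: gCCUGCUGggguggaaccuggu
mmu-miR-675-5p: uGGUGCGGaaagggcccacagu
mmu-miR-675-3p: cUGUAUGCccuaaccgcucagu

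On GRCm38.p6, miR-770-5p lies at chr12:109563710-109563731, miR-1906 of the gene Mir1906-1 at chr12:109544588-109544609, miR-673-5p at chr12:109572004-109572025 and miR-370-5p at chr12:109618270-109618289, all on the plus strand, and miR-675-5p lies at chr7:142577112-142577133 on the minus strand. The RefSeq table held 113 mature microRNAs of the interval from Dlk1 to Dio3, with 104 distinct seeds. The seed of miR-370-5p, AGGUCAC, was shared with miR-1193-3p of the same interval.

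Because Rian and rows assigned in part to Meg3 were both lower in the knockout, the windows around their RefSeq start sites are shown, each from 250 bases before to 50 bases after the start, on the plus strand of GRCm38.p6. The first, for Rian, is chr12:109603695-109603994. The second, for the more upstream of 2 Meg3 starts, is chr12:109540746-109541045. Capitals mark a match to TGCCGC or its reverse complement GCGGCA, the core bound by the imprint-protecting zinc finger protein ZFP57.
Rian: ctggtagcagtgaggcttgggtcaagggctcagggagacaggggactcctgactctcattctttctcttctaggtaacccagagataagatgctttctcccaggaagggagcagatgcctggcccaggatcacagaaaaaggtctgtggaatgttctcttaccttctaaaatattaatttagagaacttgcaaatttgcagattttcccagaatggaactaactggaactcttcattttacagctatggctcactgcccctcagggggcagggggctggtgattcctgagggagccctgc
Meg3: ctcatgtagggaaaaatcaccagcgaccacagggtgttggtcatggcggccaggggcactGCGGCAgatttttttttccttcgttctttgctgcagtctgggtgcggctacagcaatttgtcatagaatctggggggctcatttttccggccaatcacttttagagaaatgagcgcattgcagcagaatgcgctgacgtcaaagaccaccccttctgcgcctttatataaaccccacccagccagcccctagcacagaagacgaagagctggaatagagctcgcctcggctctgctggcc

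Both strands were also searched for AGGTCA, the half-site bound by many nuclear receptors. The Rian window held no match to either motif and 0 CpG dinucleotides. The Meg3 window held 1 ZFP57 core, beginning 190 bases before the start (position -190), no half-site and 13 CpG dinucleotides, against a median of 7 over all windows. A half-site was present in 16.3% of 32851 RefSeq windows and a ZFP57 core in 11.6%. The downstream Meg3 start, chr12:109545148-109545447, held 1 half-site, at position -141, and 1 CpG dinucleotide. A match describes letters in a window, and binding was not measured.

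Rian, a nuclear noncoding RNA that hosts box C/D small nucleolar RNAs, was lower in every knockout liver than in every control liver. Its log2 intensity was 5.53, 5.48, 5.24 and 5.72 in WT replicates 1 to 4 and 4.47, 4.34, 4.67 and 4.71 in NCOR_KO replicates 1 to 4. The lowest control lay above the highest knockout, so the groups did not overlap. The means were 5.49 ± 0.20 and 4.55 ± 0.17 (SD, n = 4 each), a difference of -0.94 ± 0.11 (SE) or 1.92-fold. Of the 8 genes with a row of their own, Rian was the 1 whose groups did not overlap, beside 10.4% of all 22180 genes, and nothing is read from that share because Rian was chosen on this contrast.

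**Figure D1:**
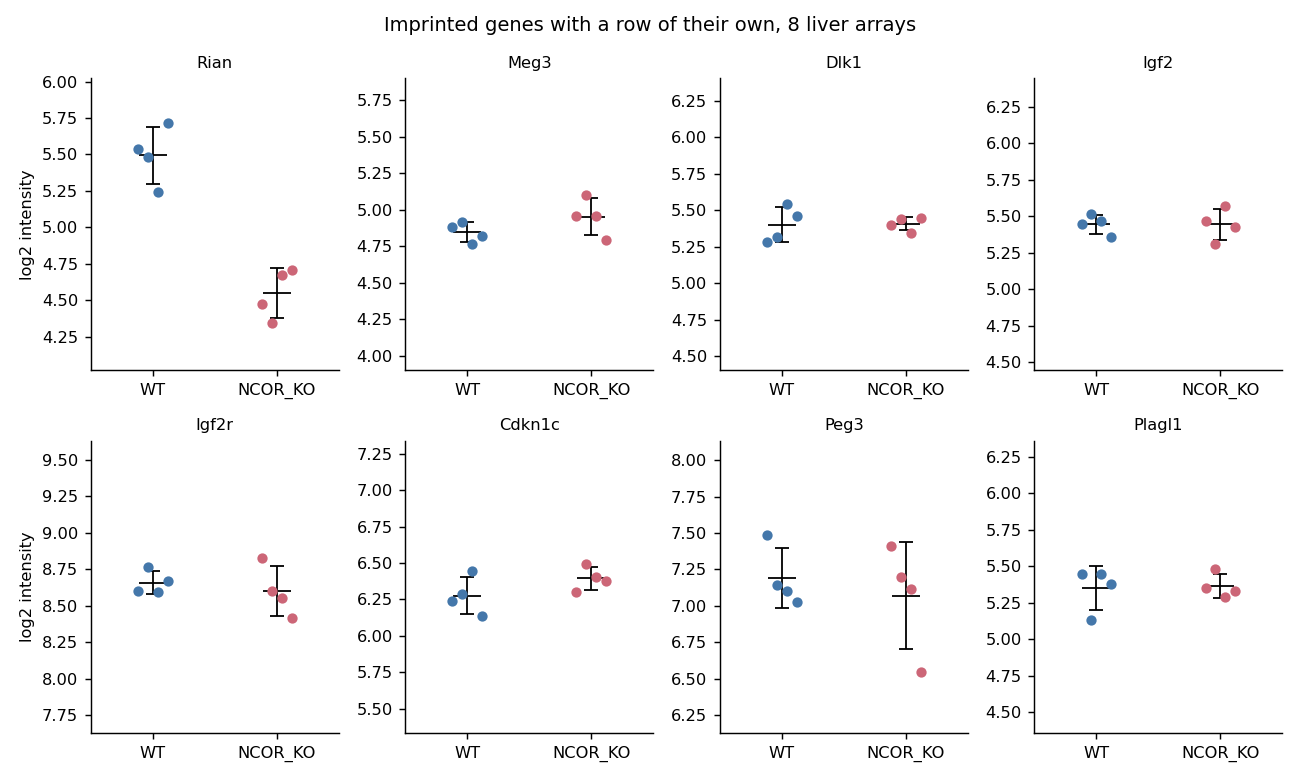
log2 intensity (vertical axis) of the 8 imprinted genes with a row of their own, in 4 WT and 4 NCOR_KO livers; each point is an array, the long bar the mean and the whiskers 1 SD, and every panel spans the same number of log2 units. The 4 NCOR_KO points of Rian, 4.34 to 4.71, lie below its 4 WT points, 5.24 to 5.72, while the groups of the other 7 genes overlap.

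Meg3, the maternally expressed long noncoding RNA at the upstream end of the same transcription unit, was named in the assignment of 3 rows, which did not move alike. The row assigned to Meg3 alone stood at 4.88, 4.92, 4.77 and 4.82 in WT and 4.96, 5.10, 4.96 and 4.79 in NCOR_KO, a difference of 0.11 ± 0.07 (SE) with overlapping groups. The row assigned to Meg3 together with Mir770 stood at 6.54, 6.88, 6.46 and 6.84 in WT and 6.04, 6.06, 5.95 and 5.86 in NCOR_KO. All 4 knockout values of this shared row were below all 4 control values, with means of 6.68 ± 0.21 and 5.98 ± 0.09 (SD, n = 4 each) and a difference of -0.70 ± 0.11 (SE), or 1.63-fold.

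The third row, assigned to Meg3 with Mir1906-1 and Mir1906-2, read 5.03, 4.87, 4.66 and 4.97 in WT and 4.21, 4.41, 4.55 and 4.19 in NCOR_KO. Its groups did not overlap either, and its difference was -0.54 ± 0.11 (SE), or 1.45-fold lower. A shared row cannot say which of its genes gave the signal, and the files name no strand for any row. Row numbers on this array follow strand and position. Of 2000 sampled rows of single genes other than microRNA genes, 1991 had a majority strand among their 10 nearest numbered neighbours, ties left out. The gene lay on the majority's strand in 96.2% of these, and microRNA rows were not part of this check. Of the 10 neighbours of the Meg3-only row 9 belonged to genes of the minus strand, while Meg3 is on the plus strand. The 10 neighbours of the row shared with Mir770 were all on the plus strand of chromosome 12. None of the 10 neighbours of the row shared with Mir1906 was on chromosome 12.

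Mirg, the noncoding RNA at the downstream end that hosts a microRNA cluster, had no row of its own, and none of its 3 shared rows separated the groups. The row with Mir134 read 6.26, 6.88, 6.34 and 6.55 in WT and 6.66, 6.42, 6.41 and 6.49 in NCOR_KO, a difference of -0.01 ± 0.13 (SE). The row with Mir485 differed by -0.01 ± 0.07 and the row with Mir369, Mir410 and Mir412 by -0.07 ± 0.06. A row shared by Rian and the small nucleolar RNA gene DQ267100 had means of 4.20 in both groups, with a range of 3.92 to 4.35 in WT and 4.10 to 4.36 in NCOR_KO, and did not carry the difference seen in the row of Rian alone.

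**Figure D2:**
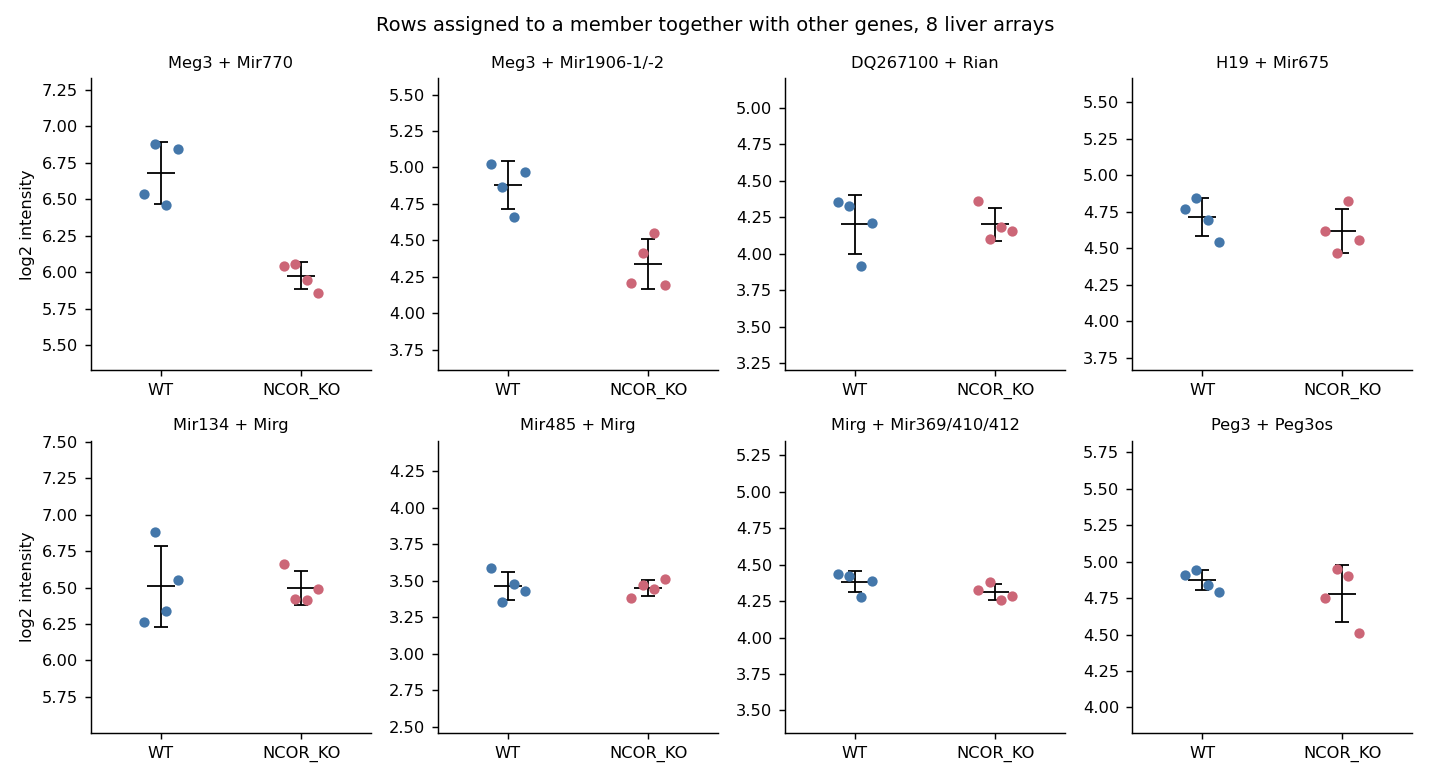
log2 intensity (vertical axis) of the 8 rows assigned to one of the 10 imprinted genes together with other genes, in 4 WT and 4 NCOR_KO livers; points are arrays, the long bar the mean and the whiskers 1 SD. The groups separate in the rows Meg3 shares with Mir770 and with Mir1906-1 and Mir1906-2, and overlap in the other 6.

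Of the 8 shared rows, 2 had all knockout values below all control values and 0 had the reverse, beside 5.16% and 4.79% of the 25335 rows assigned to any gene. Both were rows assigned to Meg3 together with microRNA genes. The row with Mir1906 had no neighbour on chromosome 12, so whether it reads Meg3 is not known. The list was chosen on this contrast, so nothing is read from these shares.

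Dlk1, the paternally expressed membrane protein of the domain that restrains differentiation of precursor cells, was level between the groups: 5.28, 5.32, 5.54 and 5.46 in WT and 5.40, 5.44, 5.35 and 5.44 in NCOR_KO. Its difference was 0.01 ± 0.07 (SE), with the knockout values inside the control range. Of the 8 genes with a row of their own, 5 lay below the median gene level of 5.88: Rian, Meg3, Dlk1, Igf2 and Plagl1. Without detection calls, whether such rows stood above background is not known, so a level reading need not mean unchanged expression. Dio3, the thyroid hormone deiodinase at the far end, differed by -0.02 ± 0.06 (SE; adjusted p = 0.922 by limma).

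The whole interval from Dlk1 to Dio3 was then laid out in RefSeq gene order, a view chosen after these values had been seen. It held 72 rows. In 7 of them every knockout value was below every control value, and in 0 the reverse held, beside 5.16% and 4.79% of all rows assigned to genes, with a median difference of -0.02 over the 72. Rian is among the 7 and was chosen on this contrast, so nothing is read from the shares. The 7 were Rian, the row of Meg3 and Mir770, the row of Meg3 and Mir1906 (placed by its assignment only), the small nucleolar RNA gene AF357425, 1 of 2 rows of the small nucleolar RNA gene DQ267101, and the microRNA genes Mir376a and Mir300. The last 2 were dim, with means of 3.14 and 3.40 in WT, and differed by -0.10 and -0.15. The table gave no detection calls, so whether rows this dim stood above background is not known.

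By position, within the span of Meg3 2 of 3 rows had all knockout values below all controls, between Meg3 and Rian 0 of 13, within Rian 3 of 11, between Rian and Mirg 2 of 33 and within Mirg 0 of 8. Neighbouring rows share transcripts and are not independent, so these counts describe positions only. A shared row was placed by its shortest gene in the interval. The row of Meg3 and Mir1906 thus counts within Meg3, although its neighbours were not on chromosome 12. The rows that Mirg shares with Mir134 and with Mir485 count between Rian and Mirg. Among the 63 rows whose neighbours were mostly on the plus strand of the chromosome, 6 had all knockout values below all controls and 0 the reverse, and the span of Meg3 kept 1 row, the one shared with Mir770.

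Inside Rian, the rows of small nucleolar RNA genes had a median below 0 and those of microRNA genes a median above 0; the difference was not tested. The 7 small nucleolar RNA rows, the one shared with Rian included, had a median difference of -0.21, from -0.67 to 0.07, and 5 were below 0. AF357425 read 4.69, 4.73, 4.29 and 4.63 in WT and 4.11, 4.29, 4.06 and 4.10 in NCOR_KO. The groups did not overlap, although the lowest control and the highest knockout both rounded to 4.29. The difference of -0.45 ± 0.10 (SE) did not pass (adjusted p = 0.0566 by limma).

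AF357355 read 5.19, 4.75, 5.02 and 4.48 in WT and 4.12, 3.71, 4.74 and 4.18 in NCOR_KO. Its difference of -0.67 ± 0.21 (SE) was the most negative among the small nucleolar RNA rows, but NCOR_KO replicate 3 lay inside the control range (adjusted p = 0.143 by limma). DQ267102 had a difference of -0.30 ± 0.15 (SE) with overlapping groups. Box C/D small nucleolar RNAs as a class guide chemical modification of other RNAs, while the targets of these ones are largely unknown. The 3 microRNA rows inside Rian were all above 0: Mir341 by 0.01, Mir1188 by 0.15 and Mir370, whose sequences are given above, by 0.03.

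**Figure D3:**
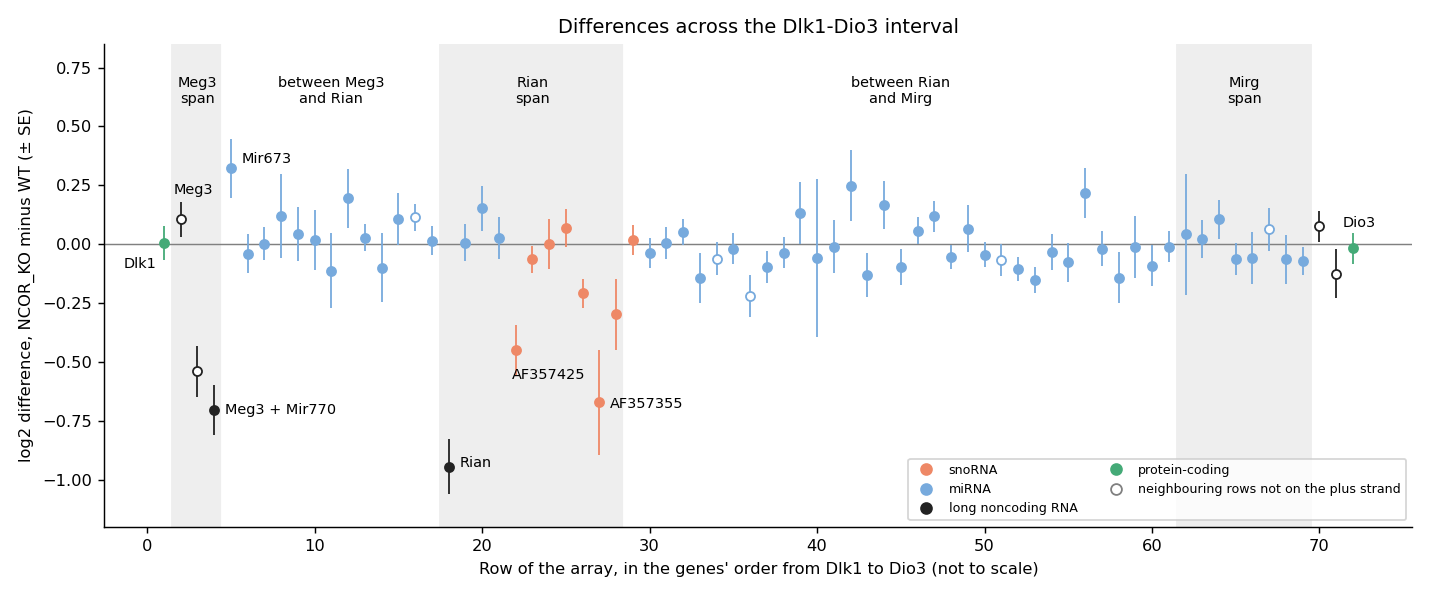
Difference in log2 intensity, NCOR_KO minus WT, with its SE from the fit of all rows (vertical axis), for 72 rows in gene order from Dlk1 to Dio3 (horizontal axis, not to scale); colour gives the kind of gene, grey bands the spans of Meg3, Rian and Mirg, and open circles rows whose neighbouring rows are not on the plus strand. A row shared by several genes has the colour of its shortest gene, except both shared Meg3 rows, which are coloured as long noncoding RNA. The most negative points are Rian (-0.94), the row of Meg3 and Mir770 (-0.70) and AF357355 (-0.67). The rows of single microRNA genes centre near 0 (median -0.02 over 47 rows).

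By the fit across all genes, none of the other listed genes of the domain passed the threshold of adjusted p under 0.05. Across the whole table limma called 366 of 22180 genes (1.65%), 181 that rose and 185 that fell, and 145 that rose and 295 that fell when each array was centred on its median. Of 70 further genes listed for the domain, 47 had a row of their own, and 0 rose and 0 fell by limma, with 5 of 47 (10.6%) at an unadjusted p under 0.05 (2 higher, 3 lower), beside 3528 of 22180 genes (15.9%) at that level in the whole table. Their median difference was -0.02, against 0.01 over all genes. With quantile normalization, median centring or a trended variance, or without WT replicate 3, AF357425 passed (adjusted p = 0.0494, 0.0409, 0.0447 and 0.0121), and without NCOR_KO replicate 4 Mir679 passed as higher (0.0323); over all 16 alternatives run on AF357425 its adjusted p ran from 0.0121 to 0.176.

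Mir673 had the most positive difference of the interval, 0.32 ± 0.12 (SE; adjusted p = 0.214 by limma), with WT at 7.92, 7.94, 7.86 and 8.15 and NCOR_KO at 8.66, 8.20, 8.13 and 8.17. WT replicate 4 overlapped the knockout range, and without NCOR_KO replicate 1, the highest array, the difference was 0.20. Mir679 stood at 5.31 ± 0.06 in WT and 5.56 ± 0.34 in NCOR_KO (SD, n = 4 each), a difference of 0.25 ± 0.14 (SE; adjusted p = 0.429). Of 18 genes listed from the sides of the domain 17 were measured, and 0 rose and 0 fell by limma (2 at an unadjusted p under 0.05, both higher). Tecpr2, which acts in autophagy, had the largest difference there, 0.33 ± 0.08 (SE; adjusted p = 0.0732), and passed when genes below the median level were left out (0.0448).

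The growth axis showed no separation of the groups in any of its 3 genes on the list. Igf2, the paternally expressed fetal growth factor, read 5.44, 5.51, 5.46 and 5.36 in WT and 5.47, 5.31, 5.57 and 5.43 in NCOR_KO. Its means, 5.45 and 5.44, differed by -0.0021 (SE 0.07), and the ranges overlapped throughout. Both means lay below the median gene level, and whether the row stood above background is not known. Igf2r, the maternally expressed receptor that takes IGF2 to lysosomes, stood at 8.60, 8.76, 8.59 and 8.67 in WT and 8.83, 8.60, 8.55 and 8.42 in NCOR_KO.

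The Igf2r difference was -0.06 ± 0.09 (SE), and NCOR_KO replicates 1 and 4 bracketed all control values. H19, the maternally expressed noncoding RNA beside Igf2, was read only together with Mir675, whose hairpin lies in its first exon. That row gave 4.77, 4.85, 4.69 and 4.54 in WT and 4.62, 4.47, 4.82 and 4.56 in NCOR_KO. The groups overlapped, with a difference of -0.10 ± 0.10 (SE), and all values lay below the median gene level.

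Around these genes, 22 of 24 listed IGF receptors, ligands, binding proteins and signalling genes were measured, and 2 rose, 0 fell and 20 did not pass by limma. Their median difference was 0.01. The calls were 9.09% of the measured genes, beside 1.65% of all genes. At an unadjusted p under 0.05 stood 8 of 22 (36.4%), 4 higher and 4 lower, beside 15.9% of all genes. The list was chosen with earlier results of these data known, so nothing is read from these shares. Igfbp1, a secreted liver protein that binds IGFs and follows fasting and insulin, rose from 10.92 ± 0.22 to 11.60 ± 0.13 (SD, n = 4 each), by 0.68 ± 0.11 (SE) or 1.60-fold (adjusted p = 0.0146). Its 4 knockout values, 11.43 to 11.73, lay above its 4 controls, 10.64 to 11.17. Pappa2, a protease that cuts IGF-binding proteins, rose by 0.50 ± 0.11 (SE; adjusted p = 0.0495) from a low level of 3.74 and lost the call in 10 of 16 alternatives, including the omission of any single array other than NCOR_KO replicate 2 (adjusted p from 0.0343 to 0.119 over the alternatives).

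Cdkn1c, the maternally expressed inhibitor of cyclin-dependent kinases that limits growth, read 6.24, 6.28, 6.44 and 6.14 in WT and 6.30, 6.49, 6.41 and 6.38 in NCOR_KO. The groups overlapped, and the difference was 0.12 ± 0.08 (SE), the largest upward value among the 8 genes. Plagl1, a paternally expressed zinc finger factor that regulates other imprinted genes, differed by 0.01 ± 0.08 (SE), from 5.35 ± 0.15 in WT to 5.36 ± 0.08 in NCOR_KO (SD, n = 4 each). Its second, dimmer row stood at 3.05 and 2.97, and its 10 numbered neighbours were on the minus strand while Plagl1 is on the plus strand.

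Peg3, a paternally expressed zinc finger protein with roles in growth and maternal behaviour, was the most variable of the 8. It read 7.49, 7.15, 7.10 and 7.03 in WT and 7.41, 7.20, 7.12 and 6.55 in NCOR_KO. Of the knockout values only replicate 4 lay below the controls, and the difference of -0.12 ± 0.17 (SE) was within the spread of either group. The row shared by Peg3 and its antisense gene Peg3os also had its lowest value, 4.51, in NCOR_KO replicate 4. The 10 numbered neighbours of this shared row were on the plus strand, while Peg3 is on the minus strand.

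Over the 8 genes with a row of their own, 4 differences were above 0 and 4 below, with a median of 0.00 after rounding, beside 0.01 over all genes. Without Rian they ran from -0.12 (Peg3) to 0.12 (Cdkn1c). Every one of these values, and of the 8 shared rows, moved by less than 1 SD, pooled over both groups, under each alternative run on it. The small differences were still not fixed in sign: those of Dlk1, Igf2 and Plagl1 took either sign over the alternatives, and without NCOR_KO replicate 4 Igf2r stood at 0.0044 and Peg3 at 0.05. Rian ran from -1.03 to -0.87 over 13 alternatives, and the row of Meg3 and Mir770 from -0.78 to -0.64 over 12.

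Among other imprinted genes, 1 paternally expressed gene rose. Ddc, which encodes the decarboxylase that makes dopamine and serotonin and is known as imprinted in the developing heart, read 7.46, 7.57, 7.91 and 7.66 in WT and 8.90, 8.78, 8.55 and 8.73 in NCOR_KO. Every knockout value was above every control. The means were 7.65 ± 0.19 and 8.74 ± 0.15 (SD, n = 4 each), a rise of 1.09 ± 0.10 (SE) or 2.13-fold (adjusted p = 0.00103 by limma). It passed in all 17 alternatives, with adjusted p from 4.09e-04 to 0.0185.

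Of 42 genes listed as paternally expressed, Ddc among them, 32 were measured, and 1 rose, 0 fell and 31 did not pass. Their median was 0.05, and 23 lay above 0. Parental expression was not measured here, and the placing of some genes in either parental list, Trappc9 and Tnfrsf23 included, is uncertain. The largest differences among those that did not pass were 0.34 ± 0.12 for Sgce, a sarcoglycan, 0.28 ± 0.10 for the survival protein Bcl2l1, -0.23 ± 0.08 for Trappc9, a vesicle-tethering subunit, and 0.19 ± 0.12 for the decoy receptor Tnfrsf23 (SE; adjusted p = 0.211, 0.214, 0.178 and 0.478 by limma). Without WT replicate 2 Sgce stood at 0.22 and Tnfrsf23 at 0.07, and without NCOR_KO replicate 2 Tnfrsf23 stood at 0.12. Of 44 genes listed as maternally expressed 40 were measured, and 0 rose and 0 fell by limma. At an unadjusted p under 0.05 stood 5 of 40 (12.5%, beside 15.9% of all genes), 3 higher and 2 lower. The median over the 40 was 0.03. Tfpi2, a protease inhibitor, had the largest difference, 0.33 ± 0.08 (SE; adjusted p = 0.0603), and passed with a trended variance or without dim genes (0.0305 at the lowest). The others named by the same rule were Tnfrsf26, a decoy receptor, at 0.24, Ppp1r9a, an actin-binding scaffold, at -0.21, and Ube3a, a ubiquitin ligase, at -0.20 (adjusted p = 0.0948, 0.423 and 0.127). Ppp1r9a stood at -0.10 without WT replicate 4 and at -0.14 without NCOR_KO replicate 1.

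**Figure D4:**
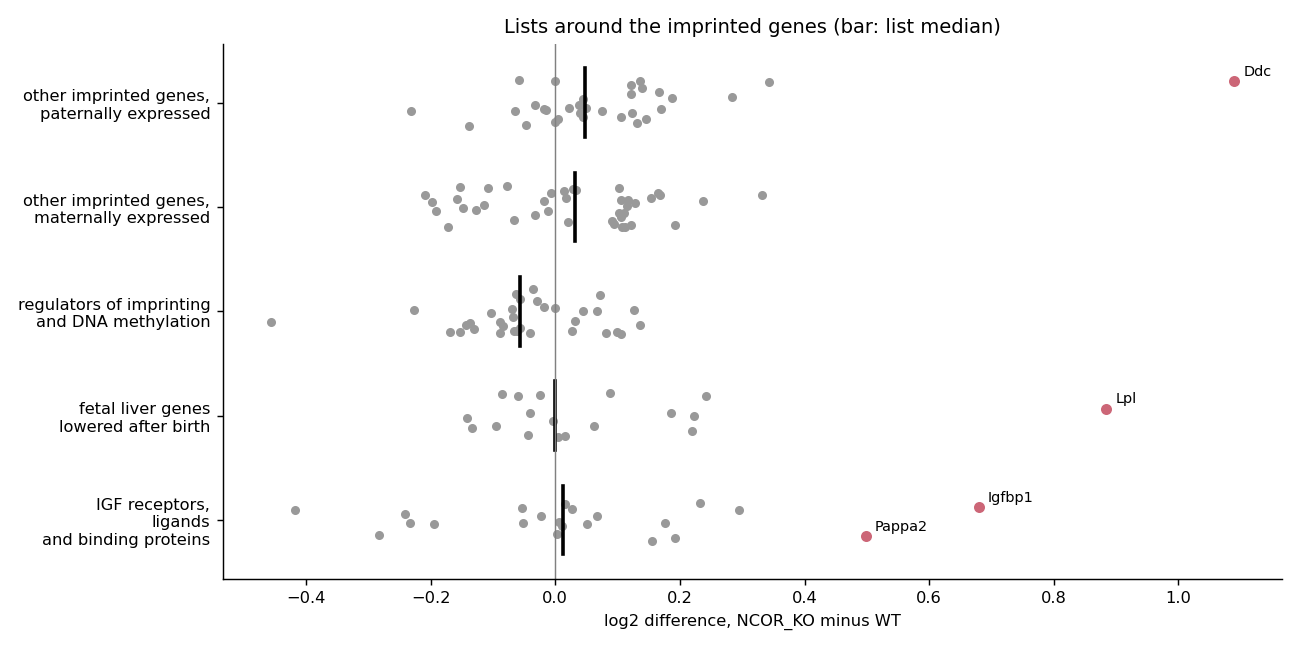
Difference in log2 intensity, NCOR_KO minus WT (horizontal axis), for each measured gene of 5 lists around the imprinted genes; grey points did not pass adjusted p under 0.05 by limma, red points did, the black bar is the list median and vertical jitter has no meaning. Ddc (1.09), Lpl (0.88), Igfbp1 (0.68) and Pappa2 (0.50) stand to the right, while the medians lie from -0.06 to 0.05.

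Genes that set or read imprints were also tested. Of 34 listed regulators of imprinting and DNA methylation 33 were measured, and 0 rose and 0 fell by limma, with 3 at an unadjusted p under 0.05, all lower. Their median was -0.06, and 23 lay below 0. Mbd1, which binds methylated DNA, had the largest difference, -0.46 ± 0.11 (SE; adjusted p = 0.0801), with all knockout values, 9.53 to 10.06, below all control values, 10.13 to 10.48, and passed when arrays were centred on their medians (0.0431).

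Of 21 further genes that the liver lowers after birth, as it does Igf2 and H19, 18 were measured, and 1 rose, 0 fell and 17 did not pass, with a median of 0.00 after rounding. The gene that rose was Lpl, lipoprotein lipase, which adult hepatocytes hold low: 6.63 ± 0.19 in WT and 7.51 ± 0.24 in NCOR_KO (SD, n = 4 each), a rise of 0.88 ± 0.13 (SE; adjusted p = 0.00888 by limma), or of 0.49 when its rows were averaged. Of the 18, 4 (22.2%) stood at an unadjusted p under 0.05, 2 higher and 2 lower, beside 15.9% of all genes. Afp, the fetal serum albumin relative, differed by -0.14 ± 0.06 (SE; adjusted p = 0.307), with all knockout values below all control values. Of 7 repressors of fetal liver genes 1 fell (14.3%, beside 1.65% of all genes called) and 6 did not pass. At an unadjusted p under 0.05 stood 4 of 7 (57.1%, beside 15.9% of all genes), 1 higher and 3 lower. In 3 of the 7 all knockout values lay below all controls, and in 0 above, beside 1218 and 1087 of all 22180 genes. The lists were chosen with earlier results of these data known, so nothing is read from these shares. Cebpa, a hepatocyte transcription factor, fell by 0.35 ± 0.06 (SE; adjusted p = 0.0158), and lost the call without WT replicate 1 or 4 or NCOR_KO replicate 2 or 3 (0.0510 to 0.0549).

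The 5 named genes whose profile over the 8 arrays came closest to Rian's, by mean absolute difference after centring each gene on its own mean, were F11, Susd4, Nlrp6, Rhbg and Bmyc, at 0.10 to 0.13 log2 units from it. The other 7 imprinted genes with a row of their own lay from 0.444 to 0.532 from Rian by the same measure. F11, coagulation factor XI, stood at 10.07 ± 0.19 in WT and 9.14 ± 0.24 in NCOR_KO (SD, n = 4 each). Rhbg, an ammonium transporter, stood at 8.30 ± 0.26 and 7.42 ± 0.17. Genes so chosen are bound to differ between the groups as Rian does, so they are a description with no test.

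The labelled tissue was checked against cell type markers, whose values also stand beside the lower Rian. Of 12 hepatocyte markers 11 were measured, and 0 rose and 0 fell by limma (0 at an unadjusted p under 0.05). In 2 of the 11 all knockout values lay below all controls, and in 0 above, beside 1218 and 1087 of all 22180 genes. Their summed intensity was 79280 to 81170 in WT and 78700 to 80310 in NCOR_KO. Stellate cell and fibroblast markers, 17 of 17 measured, also had 0 calls by limma (0 at an unadjusted p under 0.05) and sums of 7613 to 8277 and 7407 to 8672. Of 16 endothelial markers 15 were above 0, 9 were higher at an unadjusted p under 0.05 and 4 had all knockout values above all controls. Of all 22180 genes, 11539, 1720 and 1087 did so. The endothelial median was 0.19, with sums of 9029 to 10860 and 10430 to 12040. The largest differences in the 2 lists without a call were -0.23 for Ass1, a urea cycle enzyme, and -0.36 for Lrat, which stores retinol in stellate cells (adjusted p = 0.512 and 0.388 by limma). The 1 endothelial marker that rose was Robo4, a guidance receptor, by 0.35 ± 0.07 (SE; adjusted p = 0.0429 by limma).

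Among 6 measured cholangiocyte markers Epcam, an adhesion molecule, rose by 0.41 ± 0.09 (SE; adjusted p = 0.0452 by limma), and 5 did not pass. Of the 6, 5 lay above 0 and 1 below, with 3 higher and 1 lower at an unadjusted p under 0.05. Among 9 measured lymphocyte markers the T cell receptor subunit Cd3e rose by 0.47 ± 0.09 and the B cell receptor subunit Cd79a by 0.41 ± 0.07 (SE; adjusted p = 0.0373 and 0.0173 by limma). The other 7 did not pass. Of the 9, 7 lay above 0 and 2 below, with 3 higher and 0 lower at an unadjusted p under 0.05. Kupffer cell and mesothelial markers, 12 and 7 measured, had 0 calls by limma (0 and 1 at an unadjusted p under 0.05), with the largest differences in Vsig4 (0.33) and Upk1b (-0.21; adjusted p = 0.588 and 0.306), and 1 erythroid marker was measured, Slc4a1, at -0.03. The Kupffer cell markers varied widely between livers, with sums of 3522 to 6335 in WT and 4009 to 6864 in NCOR_KO. Vsig4 was lowest in WT replicate 2 (9.14) and in NCOR_KO replicate 1 (9.62), the arrays left out together in the added alternative. The calls of Robo4, Epcam, Cd3e and Cd79a were not tried under the alternatives. The part of these cell types in the values of Rian and Meg3 was not tested. In whole liver, fewer cells of a type and less RNA per cell cannot be told apart.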

How the data were processed

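The authors deposited one table of linear intensity values, 41345 array rows by 8 arrays; RMA and Partek are the tools named, without versions, per the submitters' processing notes. Their settings and the build are not given in the sources used here. Array medians ran from 41.0 to 44.1, and having 4 arrays per group limits how precise the values are. Rows were named from GEO's platform annotation: 23521 had 1 gene, 1814 several and 16010 none. Log2 was taken with no further normalization, and for each gene the single-gene row with the highest mean over 8 arrays was kept (22180 genes; 1082 had more than 1 row).

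The test of NCOR_KO against WT was limma's moderated linear model (version 3.58.1, R 4.3.3; lmFit and eBayes), with Benjamini-Hochberg adjustment over all genes and a threshold of 0.05. The fit was tested on simulated data. Rows with several genes were fitted together with all rows of the array, those without a gene included, for differences and SEs only. The members and gene lists were chosen with earlier results of these data known. Genes of a list were named by rule: every gene past the threshold and the 4 largest other differences in the domain and imprinted lists, and up to 4 past the threshold, or else the 1 largest difference, in the other lists. Dio3 and Afp, the positional view of the interval, Mir376a, Mir300, Mir341, Mir1188, Mir370, DQ267101 and DQ267102 were picked after values had been seen. Same-numbered arrays did not deviate together (correlations of -0.09 to 0.02), so replicate numbers were not used as pairs. Alternatives were quantile normalization, median centring, averaged rows, a trended robust variance, array weights, a filter on dim genes, a threshold of 0.1, a replicate block and leaving out each array; leaving out WT replicate 2 with NCOR_KO replicate 1 was added after seeing the data.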

Additional observations from a re-analysis of the deposited data

How the results depend on the processing

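No value reversed its direction under any alternative that was run on a called result. Of all genes, 366 passed in the comparison reported, 551 when genes below the median level were left out, 807 at a threshold of 0.1, 155 with the replicate block, 202 without WT replicate 2 and NCOR_KO replicate 1 together, and 120 to 297 with a single array left out; the count was over 1.5 times lower without WT replicate 1, 3 or 4 or NCOR_KO replicate 1, 2 or 3. In the Dlk1-Dio3 domain list 1 gene passed in place of 0 with quantile normalization, median centring, a trended variance or a threshold of 0.1, and 0 to 1 with a single array left out. In the flanking list 1 passed without dim genes or at 0.1. Of the IGF list 4 passed with a trended variance, 1 with the replicate block, 1 without the added pair of arrays and 1 to 2 with a single array left out. Of the maternally expressed list 2 passed with a trended variance, 1 without dim genes and 2 at 0.1. Of the regulators 1 passed with median centring, at 0.1 or with the replicate block. Of the repressors 0 passed with the replicate block and 0 to 1 with a single array left out. The cause of these changes was not tested, apart from the smaller number of genes or arrays that some alternatives use.

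The replicate numbers did not pair the arrays (same-number correlations of -0.09, 0.01, 0.02 and -0.06). With the replicate block, Cebpa had an adjusted p of 0.0565 and Igfbp1 of 0.0556, while Mbd1 had 0.0417; the other named calls with a block value stayed on their side of the threshold. The limits of the imprinted genes are their rows: Mirg and H19 had none of their own, the strand of a row is inferred from its neighbours, dim rows have no detection call, and 4 arrays per group leave small differences unresolved.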
